A study of Mus musculus with 6 samples.

Results

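The genes of fibroblast growth factor (FGF) signalling and of its ERK feedback were read in lacrimal glands that lack ectodysplasin A, a secreted signal related to TNF. Members were chosen by symbol among protein-coding genes: the numbered Fgf genes, the receptors Fgfr1 to Fgfr4 and Fgfrl1, the numbered Sprouty and Spred genes, and Fgfbp1, Frs2, Frs3, Dusp4, Dusp6, Etv1, Etv4, Etv5 and Il17rd. This gave 43 of the 50686 genes in the table. RNA came from whole glands of adult mice 13 weeks old, in 3 Eda-/- libraries (titled Tabby) and 3 wild-type libraries (titled Blacky). All 6 mice carried a C57BL/6 strain label, and the labels do not name the mutant allele. Library totals ran from 11894395 to 14480331 counts in Eda-/- and from 13670343 to 15700899 in wild-type. Eda itself had 2, 0 and 0 counts in the Eda-/- libraries, against 41, 48 and 42 in wild-type. The labelled tissue was checked against 10 acinar cell markers, which were all tested and led by Pip with 12469 ± 962 CPM (counts scaled to library size) in Eda-/- and 9505 ± 573 CPM in wild-type (SD, n = 3 each). None of 7 skeletal muscle markers had enough counts to be tested.

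FGF ligands bind receptor tyrosine kinases of the FGFR family together with heparan sulphate. The docking protein FRS2 links the receptors to RAS, RAF, MEK and ERK, and ERK induces ETS transcription factors as well as its own inhibitors, the Sprouty and Spred proteins and dual-specificity phosphatases. In the lacrimal gland, FGF10 from the mesenchyme acting on epithelial FGFR2 drives budding and branching during development. FGF7 uses the same epithelial receptor isoform. The counts are summed per gene, so receptor isoforms could not be separated.

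Few FGF genes differed detectably between the genotypes. Fgfr1 was the single member that passed the test, with a 0.769-fold level in Eda-/- glands. The branching ligand Fgf10, its receptor Fgfr2, and the ERK outputs Dusp6, Spry2, Etv1 and Etv5 did not pass. Of the 43 members 19 had enough counts to be tested, 1 was lower and 0 were higher by edgeR's quasi-likelihood method, at a threshold of 0.05 on p adjusted by Benjamini and Hochberg over all 13178 tested genes. That is 5.26% of the tested members, where 13.1% of all tested genes passed, 6.9% as lower and 6.21% as higher. Neither DESeq2 nor limma-voom called a member higher. Before adjustment, 0 members were higher and 3 were lower at 0.05, where 13.3% and 14.3% of all tested genes were. The log2 fold change was below 0 in 15 of the 19 tested members, with a median of -0.20, beside a median of 0.0030 and a share of 49.5% below 0 over all tested genes. The filter on low counts asked for 0.71 CPM in at least 3 libraries. It used plain library totals, so its CPM differ somewhat from the TMM-scaled CPM printed here. It was met in all 6 libraries by 15 members and only in the wild-type libraries by 1, Fgf7. Fgfr3 and Fgfrl1 met it in 1 Eda-/- library and all 3 wild-type libraries, and Fgf2 in 2 and 3. Members that enter mainly through wild-type libraries tend to lie below 0 by that selection. The tally of 15 and the median of -0.20 include these genes, so neither is evidence of a decrease.

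**Figure D1:**
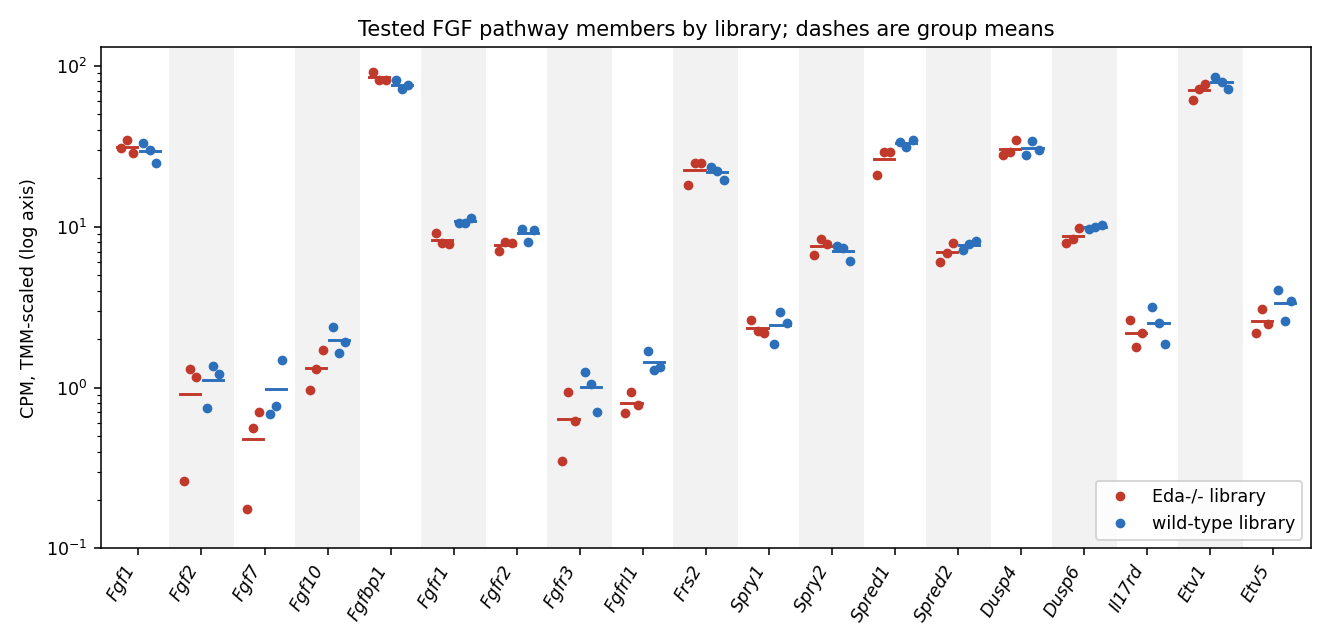
Level of each of the 19 tested members in CPM (log axis) by library, with 3 Eda-/- points on the left of each gene and 3 wild-type points on the right, and dashes at group means. The groups overlap for most members, and the 3 Eda-/- points of Fgfr1, Fgfrl1 and Spred1 lie below their wild-type points.

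In 3 tested members, Fgfr1, Fgfrl1 and Spred1, all Eda-/- libraries lay below all wild-type libraries, and in 1, Fgfbp1, all lay above. These are 15.8% and 5.26% of the tested members. Over all tested genes 16.2% lay wholly below and 15.9% wholly above. Promoters of 32 of the members were searched in the table from RefSeq (GRCm38.p6), which held none for Fgfr1. The 32 are the members searched, not all that the table may hold. The 250 bases before the start of Spred1, Fgfrl1 and Fgfbp1, the separated genes other than Fgfr1, are shown so that they can be read directly. None of these 3 passed the test. Capitals mark the ETS core CGGAAG on either strand, the core bound by ERK-responsive ETS factors such as the ETV proteins.
Spred1 (chr2:117120821-117121070, plus strand): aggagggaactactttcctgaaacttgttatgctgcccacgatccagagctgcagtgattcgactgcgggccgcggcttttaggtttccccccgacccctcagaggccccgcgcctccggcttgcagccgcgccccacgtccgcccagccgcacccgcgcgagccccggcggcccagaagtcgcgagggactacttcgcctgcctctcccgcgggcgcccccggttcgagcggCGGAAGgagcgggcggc
Fgfrl1 (chr5:108693979-108694228, plus strand): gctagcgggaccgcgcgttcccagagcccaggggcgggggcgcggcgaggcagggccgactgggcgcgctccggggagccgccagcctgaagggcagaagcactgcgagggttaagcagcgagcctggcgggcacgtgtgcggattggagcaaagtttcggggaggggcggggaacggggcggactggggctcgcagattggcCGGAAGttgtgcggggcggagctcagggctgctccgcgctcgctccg
Fgfbp1 (chr5:43981800-43982049, minus strand): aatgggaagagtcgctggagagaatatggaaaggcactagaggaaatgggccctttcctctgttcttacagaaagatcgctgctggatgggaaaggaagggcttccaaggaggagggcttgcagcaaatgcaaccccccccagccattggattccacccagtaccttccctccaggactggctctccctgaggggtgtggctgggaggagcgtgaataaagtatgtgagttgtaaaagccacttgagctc

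Spred1 and Fgfrl1 hold 1 match each and Fgfbp1 none. The 16 tested members searched in that table, with Fgf1, Dusp4 and Fgfr1 not among them, have 19 promoters. Of these 5 held a match, in Spred1, Spred2, Fgfrl1, Dusp6 and Frs2. Of all 32851 promoters in the table, those of untested genes and of chromosome 18 included, 13.6% held one. The NF-kB consensus, searched on both strands because ectodysplasin signals through NF-kB, was found in 0 of the 19 and in 7.25% of all promoters. The matches are letters in these windows and say nothing of binding.

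The single call was a receptor. Fgfr1, a receptor of mesenchymal and epithelial cells (ENSMUSG00000031565.18, GRCm38 chromosome 8, 25513654 to 25575718, plus strand), had 9.17, 7.97 and 7.80 CPM in the Eda-/- libraries, against 10.5, 10.5 and 11.4 CPM in wild-type. The groups did not overlap. It fell by 0.38 on the log2 scale (SE 0.12, 95% interval -0.63 to -0.12, edgeR adjusted p = 0.0488), close to the threshold. It did not pass in DESeq2 (adjusted p = 0.290) or limma-voom (0.0557), once trends with GC content and exon length were taken out (0.0785), or when Eda-/- 2, Eda-/- 3 or any 1 wild-type library was left out (adjusted p 0.0890 to 0.167). It passed without Eda-/- 1 (0.0406). The log2 fold change lay between -0.66 and -0.30 in all of 17 other settings.

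**Figure D2:**
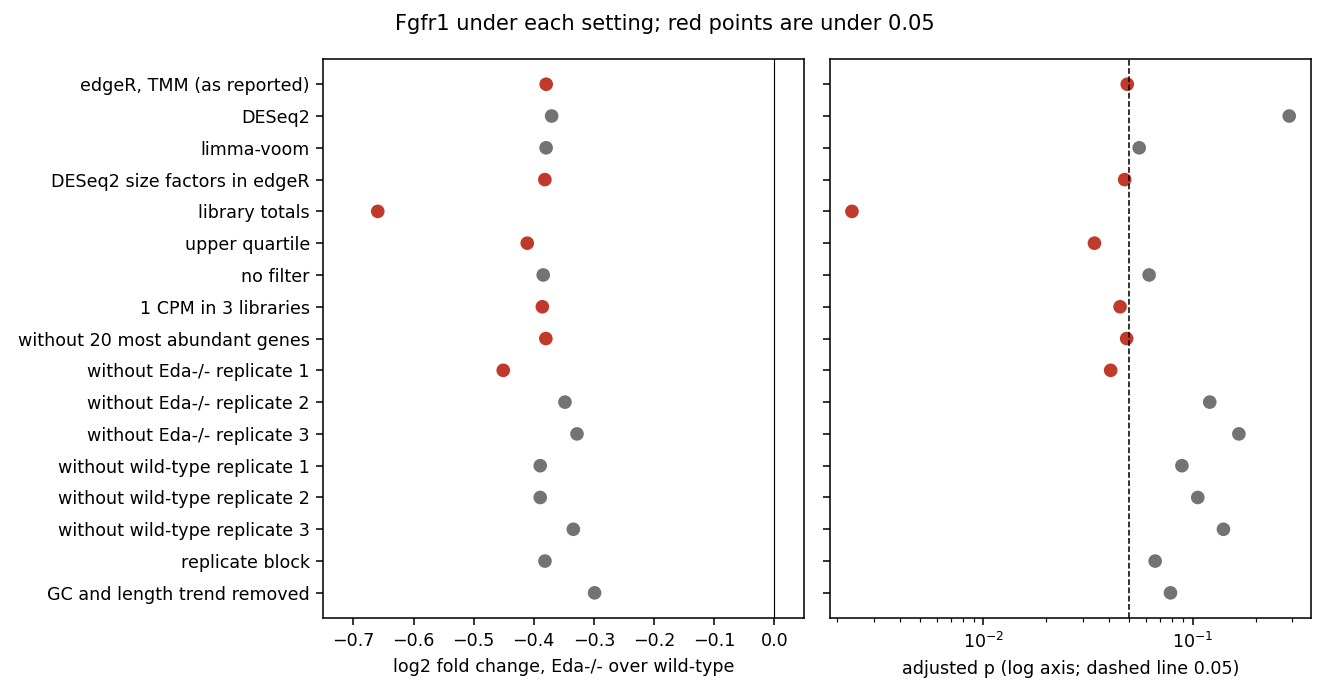
Fgfr1 log2 fold change of Eda-/- over wild-type (left) and its adjusted p on a log axis (right) under each setting, with red points under 0.05. The fold change stays below 0 throughout, and the adjusted p crosses the threshold of 0.05 from setting to setting.

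Fgfr2, the epithelial receptor of FGF7 and FGF10 (chromosome 7, 130162451 to 133123350, minus strand), had 7.07, 8.06 and 7.95 CPM in Eda-/-, against 9.73, 8.0 and 9.5 CPM in wild-type. The groups overlapped at their edges, and it did not pass (log2 fold change -0.24, 95% interval -0.52 to 0.04, adjusted p = 0.265). Fgfrl1, a receptor without a kinase domain, had 0.698, 0.937 and 0.780 CPM in Eda-/-, against 1.68, 1.29 and 1.35 CPM in wild-type. Its groups were separate, with a log2 fold change of -0.84 (SE 0.31, 95% interval -1.5 to -0.17), and it missed the threshold at an adjusted p of 0.0932. In CPM over plain library totals, only 1 Eda-/- library, against all 3 wild-type libraries, met the count filter for Fgfrl1, and likewise for Fgfr3. Fgfr3 was scarce, at 0.349, 0.937 and 0.624 CPM in Eda-/-, against 1.25, 1.06 and 0.706 CPM in wild-type (log2 fold change -0.67, 95% interval -1.52 to 0.19, adjusted p = 0.308). Fgfr4 had 2, 1 and 5 counts in Eda-/- and 1, 2 and 0 in wild-type, too few to test.

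Per kilobase of exon, Fgfr1 and Fgfr2 made up nearly all of the receptor level in both genotypes. Of the summed per-kilobase level of Fgfr1 to Fgfr4, Fgfr1 held 48.5% ± 5.04 in Eda-/- and 51.4% ± 2.55 in wild-type (SD, n = 3 each). Fgfr2 held 42.9% ± 2.50 in Eda-/- and 41.2% ± 2.49 in wild-type. Both shares overlapped between the genotypes. Fgfr2 shares 3.04% of its exon bases with Ctbp2 on the same strand, so some reads may be assigned to either. The annotated span of Fgfr2, up to 133123350, runs far beyond its RefSeq promoter at 130266809 to 130267058. RNA of several marker lists differed between the genotypes alongside Fgfr1. The counts of markers called below stand beside shares of 6.9% lower and 6.21% higher over all tested genes. Summed markers of fibroblasts, cells known to express Fgfr1, ran from 165 to 187 CPM in Eda-/- and from 206 to 266 CPM in wild-type. Of 8 tested fibroblast markers Col1a2, Pdgfra and Dcn fell, by 0.62, 0.52 and 0.42 on the log2 scale, and 0 rose. This count was 2 when any 1 Eda-/- library was left out. None of the 9 listed fibroblast markers was at 0 in every library. Summed macrophage markers ran from 28.3 to 35.4 CPM in Eda-/- and from 59.2 to 113 CPM in wild-type, with Csf1r, C1qa, C1qc, Tyrobp and Mrc1 lower among 9. The count was 3 when any 1 Eda-/- library was left out, and 7 or 8 when any 1 wild-type library was. Summed myoepithelial markers ran from 92.1 to 103 CPM in Eda-/- and from 113 to 157 CPM in wild-type, with Myh11, Cnn1 and Trp63 lower among 8 tested. The count was 1 or 2 without Eda-/- 1, 2 or 3 or wild-type 2 or 3. Summed acinar markers ran from 14941 to 17837 CPM in Eda-/- and from 11571 to 13350.3 CPM in wild-type, with Pip, Bhlha15 and Xbp1 higher and Spdef lower among 10. Scaled by library totals, 0 acinar markers were higher and 4 lower, and the list's median was -0.11, against 0.17 with TMM. With library totals 33.1% of all tested genes were lower and 1.87% higher. Their median was then -0.28, against 0.0030 with TMM. When 1 library was left out, 2 to 4 acinar markers were higher and 0 or 1 lower. Xbp1 did not pass without Eda-/- 1 or 3 or wild-type 1 or 2, nor Spdef without Eda-/- 1 or 2 or wild-type 3. Sox10 was lower among 4 tested Schwann cell and nerve markers, but did not pass in DESeq2 (adjusted p = 0.206) or without Eda-/- 2 or 3 or wild-type 1 or 2. No tested duct, endothelial or pericyte marker passed, nor did the 1 of 6 adipocyte markers that was tested. Of 9 lymphocyte markers 1 was tested, the plasma cell gene Jchain, with 50.8, 21.6 and 40.1 CPM in Eda-/-, against 6.30, 27.7 and 5.58 CPM in wild-type. Its groups overlapped, and it did not pass in edgeR (log2 fold change 1.5, adjusted p = 0.328) but did in limma-voom. The part of these markers in the Fgfr1 result was not tested. In whole-gland RNA, fewer cells of a type and less RNA per cell cannot be told apart.

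Among the ligands, Fgf1 stood far above the rest. It had 30.9, 34.5 and 28.6 CPM in Eda-/-, against 33.3, 30.1 and 24.8 CPM in wild-type. FGF1 binds all FGF receptors and lacks a classical secretion signal. The 2 groups overlapped over most of their range (log2 fold change 0.09, 95% interval -0.14 to 0.32, adjusted p = 0.657). Fgf1 held 81.6% ± 3.06 of the summed per-kilobase level of the 22 Fgf genes in Eda-/- and 80.0% ± 3.30 in wild-type (SD, n = 3 each).

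Fgf10 (ENSMUSG00000021732.14, chromosome 13, 118669791 to 118792115, plus strand) had 0.960, 1.31 and 1.72 CPM in Eda-/-, against 2.37, 1.65 and 1.93 CPM in wild-type. The highest Eda-/- library lay just above the lowest wild-type library. The log2 fold change was -0.56 (SE 0.29, 95% interval -1.18 to 0.06, adjusted p = 0.230). Fgf7, its close relative, had 0.175, 0.562 and 0.702 CPM in Eda-/-, against 0.686, 0.765 and 1.48 CPM in wild-type. Its log2 fold change of -0.99 was the lowest of the tested members and among the least precise (95% interval -1.99 to 0.02, adjusted p = 0.192). These values rest on 2, 6 and 9 counts in Eda-/- and 11, 13 and 23 in wild-type. Fgf7 met the count filter only in the wild-type libraries, so its rank as lowest is partly set by that selection. Both intervals reach 0, and they also hold large decreases, so these counts do not settle a difference in either gene.

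Fgf2, a ligand that is also stored in the matrix, had 0.262, 1.31 and 1.17 CPM in Eda-/-, against 0.748, 1.35 and 1.22 CPM in wild-type. Its low value in Eda-/- 1 rests on 3 counts. The log2 fold change was -0.28 (95% interval -1.21 to 0.66, adjusted p = 0.740), and 0.16 without Eda-/- 1. Fgf2 shares 9.44% of its exon bases with Nudt6 on the opposite strand, and without a stated strand setting reads there cannot be told apart. Fgfbp1, a carrier that releases FGFs from heparan sulphate, was the most abundant member at 91.5, 81.7 and 81.9 CPM in Eda-/-, against 80.9, 71.9 and 75.6 CPM in wild-type. All Eda-/- values lay above the wild-type ones, by a log2 fold change of 0.16 (SE 0.08, 95% interval -0.0035 to 0.32, adjusted p = 0.191). With library totals in place of TMM scaling the value was -0.12.

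The other 18 Fgf genes could not be tested. Together they had 24, 15 and 11 counts in the Eda-/- libraries and 21, 20 and 17 in wild-type. At most 3 counts were found in any library for 16 of them, including Fgf8, Fgf9, Fgf18 and the intracellular genes Fgf12 to Fgf14. Fgf16 had 0 counts in all 6 libraries, which allows up to 0.0858 CPM over the Eda-/- group and 0.0617 CPM over the wild-type group, for counting error only. The 2 exceptions were Fgf11 and Fgf21. Fgf11, an intracellular member that does not act through FGF receptors, had 2, 2 and 4 counts in Eda-/- and 10, 1 and 4 in wild-type. Fgf21, an endocrine ligand induced by metabolic stress, had 9, 0 and 0 counts in Eda-/- and 1, 0 and 0 in wild-type. The Fgf21 ratio of 12.5 (exact binomial 95% interval 1.73 to 549, for counting error only) comes from 1 library, Eda-/- 1.

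**Figure D3:**
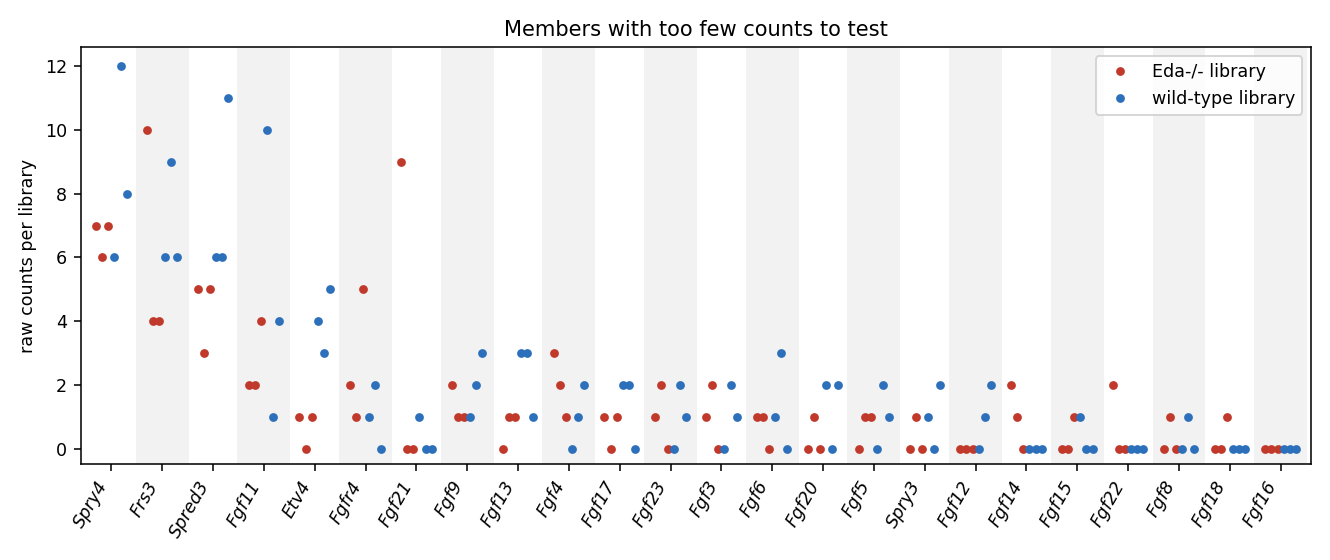
Raw counts per library of the 24 members with too few counts to test, with Eda-/- points on the left of each gene and wild-type points on the right. No point exceeds 12 counts, and Fgf21 has 9 counts in 1 Eda-/- library.

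No ERK inhibitor passed the test. Dusp4, a nuclear ERK phosphatase, had 27.7, 29.1 and 34.5 CPM in Eda-/-, against 27.7, 34.2 and 29.8 CPM in wild-type. The groups covered the same range, and the 95% interval of the log2 fold change ran from -0.22 to 0.21. Dusp6, the cytoplasmic ERK phosphatase that is a common readout of FGF activity, had 7.86, 8.43 and 9.82 CPM in Eda-/-, against 9.73, 9.88 and 10.3 CPM in wild-type. Only the highest Eda-/- library reached the wild-type range (log2 fold change -0.19, 95% interval -0.45 to 0.07, adjusted p = 0.352). Spry2, which blocks signalling between receptor and RAF, had 6.64, 8.34 and 7.80 CPM in Eda-/-, against 7.61, 7.41 and 6.10 CPM in wild-type (log2 fold change 0.11, 95% interval -0.20 to 0.41, adjusted p = 0.694). Spry1, of the same family, had 2.62, 2.25 and 2.18 CPM in Eda-/-, against 1.87, 2.94 and 2.50 CPM in wild-type, and its Eda-/- values lay inside the wild-type range (log2 fold change -0.06, 95% interval -0.57 to 0.45).

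Spred1, an inhibitor of RAS and RAF that recruits neurofibromin, had 20.9, 29.1 and 29.0 CPM in Eda-/-, against 33.7, 31.5 and 34.6 CPM in wild-type. The groups were separate, and Eda-/- 1 was far below the other Eda-/- libraries. The log2 fold change was -0.33 (SE 0.11, 95% interval -0.58 to -0.09) with an adjusted p of 0.0678, and -0.19 (adjusted p = 0.184) without Eda-/- 1. It passed when no filter on low counts was applied (adjusted p = 0.00909). Spred2 had 6.02, 6.84 and 7.88 CPM in Eda-/-, against 7.17, 7.82 and 8.15 CPM in wild-type (log2 fold change -0.15, 95% interval -0.45 to 0.15, adjusted p = 0.527). Il17rd, which encodes the FGF antagonist Sef, had 2.62, 1.78 and 2.18 CPM in Eda-/-, against 3.18, 2.53 and 1.86 CPM in wild-type, overlapping values (log2 fold change -0.20, 95% interval -0.75 to 0.35). Spry4 had 7, 6 and 7 counts in Eda-/- and 6, 12 and 8 in wild-type, and Spred3 had 5, 3 and 5 in Eda-/- and 6, 6 and 11 in wild-type, too few to test. Spry3 had at most 2 counts in any library.

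The ETS transcription factors downstream of FGF and ERK differed in abundance among themselves. Etv1 was abundant, at 61.4, 71.9 and 77.2 CPM in Eda-/-, against 84.7, 79.2 and 72.0 CPM in wild-type. The groups overlapped (log2 fold change -0.16, 95% interval -0.36 to 0.03, adjusted p = 0.258), and the value was 0.0016 once trends with GC content and exon length were taken out. Etv5 had 2.18, 3.09 and 2.50 CPM in Eda-/-, against 4.05, 2.59 and 3.47 CPM in wild-type (log2 fold change -0.38, 95% interval -0.87 to 0.11, adjusted p = 0.311). Etv4 was barely detected, with 1, 0 and 1 counts in Eda-/- and 4, 3 and 5 in wild-type. Its groups were separate, at a ratio of 0.232 (exact binomial 95% interval 0.0252 to 1.04, for counting error only). Frs2, the docking protein, had 18.2, 24.7 and 24.7 CPM in Eda-/-, against 23.6, 22.1 and 19.6 CPM in wild-type (log2 fold change 0.05, 95% interval -0.20 to 0.30, adjusted p = 0.824), and the value was -0.23 with library totals. The related Frs3 had 10, 4 and 4 counts in Eda-/- and 6, 9 and 6 in wild-type.

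**Figure D4:**
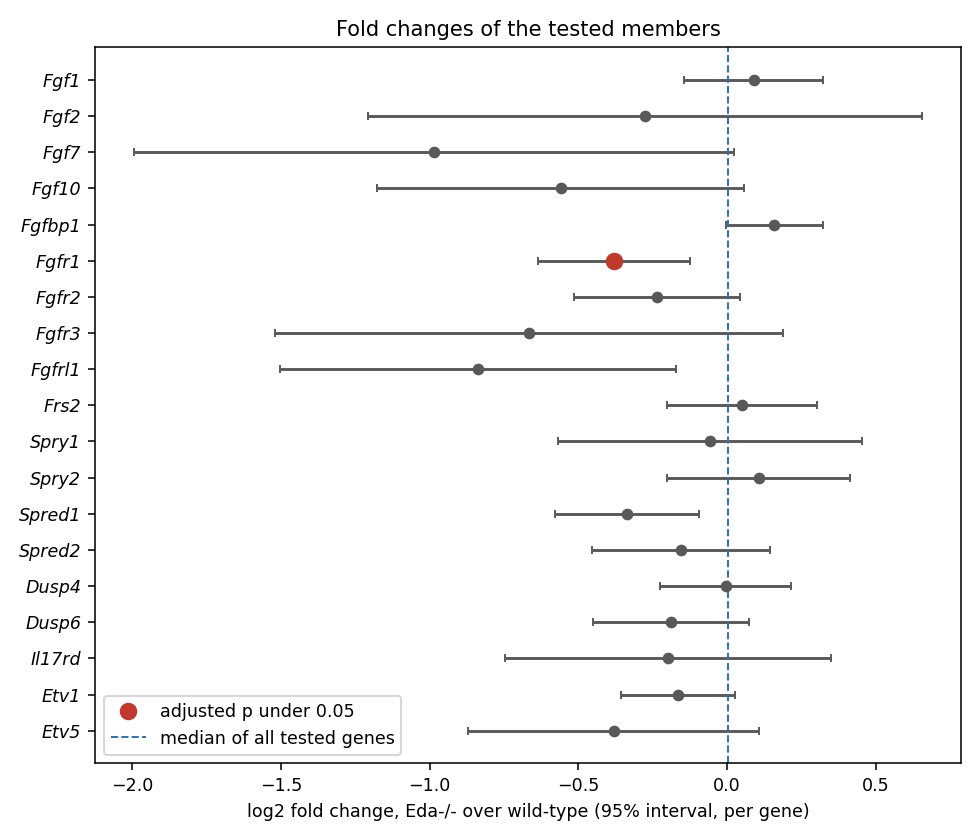
Log2 fold change of Eda-/- over wild-type for the 19 tested members, with 95% intervals per gene that are not adjusted for the number of genes. The red point, Fgfr1, is the single member with an adjusted p under 0.05, and the dashed line marks the median of all tested genes (0.0030).

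The order of levels was alike in both genotypes. Per kilobase of exon, Fgfbp1 stood first, with 37.6 ± 2.47 in Eda-/- and 33.7 ± 2.0 in wild-type (CPM per kilobase, SD, n = 3 each). Dusp4 came next, with 11.1 ± 1.32 in Eda-/- and 11.2 ± 1.22 in wild-type. Fgf1 (5.74 ± 0.542 in Eda-/- and 5.38 ± 0.788 in wild-type) and Etv1 (5.28 ± 0.605 in Eda-/- and 5.91 ± 0.477 in wild-type) followed, and their libraries overlapped each other in both groups. Fgfr1 ranked 10 of the 19 in both groups. In both groups all of its libraries lay above those of Fgfr2. Fgf10, at 0.289 ± 0.0821 in Eda-/- and 0.430 ± 0.0792 in wild-type, did not separate from Fgfrl1 above it. Exon length here is the union over transcripts, so genes with long, rarely used exons are set too low.

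Within the Eda-/- group, Eda-/- 1 held the lowest value of 14 of the 19 tested members, against 2 for Eda-/- 2 and 3 for Eda-/- 3. The wild-type libraries held the lowest value of 6, 7 and 6. This count was not made over all tested genes, so whether Eda-/- 1 was low for genes at large is not known. Without Eda-/- 1 the median of the members was -0.14, beside 0.00049 for all tested genes. Scaling also mattered. Scaled by library totals, the median tested gene was at -0.28, and 10 members passed as lower, where 33.1% of all tested genes did (4365 lower and 246 higher, beside 909 lower and 819 higher with TMM). Once trends with GC content and exon length were taken out, 852 genes were lower and 1469 higher, and no member passed. Spred1 was then at -0.21 and Fgf10 at -0.44, beside a median gene at 0.064.

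The rest of the pathway was read from lists of related genes, beside shares of 6.9% lower and 6.21% higher over all tested genes. The counts of these lists depended on scaling. With library totals, where 33.1% of all tested genes were lower and 1.87% higher, 0 genes of the 4 lists below rose. Those lower then numbered 11 of 24 for the ERK cascade, 7 of 16 for genes induced by ERK, 11 of 22 for heparan sulphate and co-receptors, and 7 of 13 for other receptors. With TMM the values were as follows. Of 24 genes of the ERK cascade, all tested, 1 fell and 1 rose, with a median of 0.05. Rps6ka1, which encodes the ERK-activated kinase RSK1, had 19.2, 16.9 and 15.8 CPM in Eda-/-, against 55.2, 49.8 and 48.2 CPM in wild-type. Its groups lay far apart, and it fell by 1.56 on the log2 scale (SE 0.09, edgeR adjusted p = 1.60e-08), and by 1.5 to 1.84 in the other settings. The docking protein gene Gab2 rose by 0.57 (adjusted p = 0.0154), but did not pass in DESeq2 or without Eda-/- 3 (0.0949) or wild-type 2 (0.0563). Mapk3, which encodes an ERK kinase, did not pass (log2 fold change -0.20, 95% interval -0.58 to 0.17).

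Of 21 further genes induced by ERK, 16 were tested, 3 fell and 0 rose, with a median of -0.36. At most 2 fell without any 1 library, and the median was -0.13 without wild-type 3. The cyclin gene Ccnd1 had 41.6, 28.7 and 40.5 CPM in Eda-/-, against 56.1, 70.9 and 71.5 CPM in wild-type, separate groups, and fell by 0.84 on the log2 scale (SE 0.15, edgeR adjusted p = 0.00990). It passed without any 1 library. The receptor gene Epha2 fell by 0.47 and the AP-1 gene Junb by 0.42 (adjusted p = 0.0338 and 0.0355), but Epha2 did not pass when any 1 library was left out, and Junb passed only when wild-type 2 was.

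Of 34 genes for heparan sulphate and FGF co-receptors, 33 were matched and 22 tested, of which 3 fell and 1 rose, with a median of -0.09. The syndecan gene Sdc2 had 2.79, 3.56 and 3.35 CPM in Eda-/-, against 6.36, 6.29 and 5.46 CPM in wild-type. All Eda-/- values were lower, and it fell by 0.90 on the log2 scale (SE 0.17, edgeR adjusted p = 0.00266). Hspg2, the basement membrane proteoglycan perlecan, fell by 0.56 (adjusted p = 0.00281) and Sdc4, an abundant syndecan, by 0.38 (adjusted p = 0.00772). Sdc2, Hspg2 and Sdc4 each passed without any 1 library. Ugdh, the enzyme that makes the UDP-glucuronate used in heparan sulphate, rose by 0.71 (adjusted p = 0.0112), and did not pass without Eda-/- 1 (0.0604) or with library totals (0.0818). The Klotho co-receptors of endocrine FGFs, Kl and Klb, were too low to test.

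Of 15 other growth factor receptors that signal through ERK, 13 were tested, 4 fell and 1 rose, with a median of -0.11, and 2 fell in DESeq2. Kit fell by 0.87, Pdgfra by 0.52, Flt1, a receptor for VEGF, by 0.51 and Egfr by 0.43 on the log2 scale. Met, the receptor for hepatocyte growth factor, rose by 0.46 (edgeR adjusted p = 0.00458), and was at 0.18 (adjusted p = 0.128) with library totals. Egfr did not pass without Eda-/- 3 (adjusted p = 0.0560) or wild-type 2 (0.0778). Whether Fgfr1 differed from these receptors in its change was not tested. Fgfr1op and Fgfr1op2, whose symbols begin like the receptors but whose products are fusion partners of FGFR1, were left out of the members, and neither passed (log2 fold change -0.21 and -0.13).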

How the data were processed

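The authors deposited 1 table of raw counts of reads per gene, with 1 column per library. The submitters' processing notes name STAR, featureCounts, bcl2fastq, Trimmomatic and DESeq2, with build GRCm38.p5. Tool versions, annotation release, strand setting and treatment of multi-mapping reads: not given in the sources used here. Per the labels' protocols, libraries were directional and made after removal of ribosomal RNA. Symbols and exon lengths came from GENCODE M21 (GRCm38), which matched 50462 of 50686 identifiers, and 224 did not match.

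The test was edgeR's (4.0.16, under R 4.3.3; filterByExpr with a minimum count of 10, TMM, robust quasi-likelihood, genotype alone, two-sided, threshold 0.05 over 13178 genes). Each SE was taken as |log2 fold change| over root F. CPM are scaled by TMM, except in the count filter, and are divided by exon length in kilobases where so stated. Intervals and floors from summed counts cover counting error only, and a floor is 3 counts over a group. Samples of a group are biological replicates per the design text. Pairs of libraries within a group differed by more than sampling noise (chi-square per degree of freedom 9.62 to 28.2). Counts of Eda-/- and wild-type libraries were simulated for the 13178 tested genes with the same dispersion for every gene (coefficient of variation 0.103). Of these, 12945 passed the count filter when it was run again on the simulated counts. Among those that passed it, 81.8% of 2-fold and 42.3% of 1.5-fold changes were recovered (99 and 97 genes). Real genes differ in dispersion, so these shares do not give the recovery for single members or for those with few counts.

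Described in full are members that passed or averaged 5 CPM or more. The other tested members are also given, and of each list up to 4 genes that passed, by smallest p. Egfr, Mapk3, Kl and Klb were picked with their values in view. The members and lists were chosen with earlier results of these data known. Alternatives were DESeq2 1.42.0, limma-voom (limma 3.58.1), 3 scalings, 2 filters, removal of the 20 most abundant genes, each library left out, a replicate block, a threshold of 0.01, and, added after the data were seen, taking out trends with GC content and exon length (99.8% of tested genes and 19 tested members had both).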

Additional observations from a re-analysis of the deposited data

How the results depend on the processing

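The number of members lower in Eda-/- was 1 as reported. It was 0 with DESeq2, limma-voom, a threshold of 0.01 or the trend on GC content and length removed, 10 with library totals, and 0 to 1 with each library left out. Of the 10, 9 were gained by that scaling, and without a filter on low counts Spred1 passed in place of Fgfr1 (adjusted p = 0.0621). No member passed as higher in any setting. Over all genes, 909 were lower and 819 higher as reported. There were 593 lower with DESeq2, 4365 lower and 246 higher with library totals, 391 lower and 353 higher at a threshold of 0.01, and 1469 higher after removal of the GC and length trend. With each library left out 599 to 834 were lower and 561 to 677 higher, the lowest being 599 without Eda-/- 3. Among single members not called, log2 fold changes crossed 0 to -0.12 (Fgfbp1), -0.23 (Frs2), -0.17 (Spry2) and -0.19 (Fgf1) with library totals, where the median gene lay at -0.28. Dusp4 was at 0.0043 with DESeq2 and 0.029 after removal of the GC and length trend, and Etv1 at 0.0016 after that removal. The cause was not tested. With each library left out the ranges that crossed 0 were -0.10 to 0.094 for Dusp4, -0.0098 to 0.20 for Fgf1, -0.58 to 0.16 for Fgf2, -0.017 to 0.19 for Frs2, -0.36 to 0.0056 for Il17rd and -0.21 to 0.11 for Spry1.

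Deviations of same-numbered libraries correlated at -0.035, 0.021 and -0.094 for numbers 1, 2 and 3, and not every library correlated best with its own number. The replicate numbers thus gave no sign of pairing, but with 3 libraries per group this check cannot exclude it. With the replicate number as a block, 896 genes were lower and 712 higher and 0 members passed (Fgfr1 adjusted p = 0.0663). At this depth 24 members, 18 of them ligands, had too few counts to test.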
